A study of Rattus norvegicus with 18 samples.

Results

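Of the 18 libraries in the series, the 9 from RPE/choroid are described here, 5 rich and 4 poor in transcripts of rod photoreceptors. The RPE, the retinal pigment epithelium, is the cell sheet under the neural retina, and the choroid is the vascular and pigmented layer behind it. The members of each set were chosen by 1 measured value, the summed level of rod genes in CPM (counts scaled to the same library total), so that the difference in rod genes between the sets is how they were made and is not a finding. The question put to the data was which genes go with the content of neural retina in these libraries and which with RPE and choroid.

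The libraries came from female Fischer 344 rats, an albino strain labelled wild type. Young rats were 4 months old, aged rats were 24 months old and drank water only, and 8-AG-treated rats of the same age had been given 8-aminoguanine (8-AG) in the drinking water for 8 weeks from 22 months of age at 5 mg/kg body weight per day. Each group has 3 RPE/choroid and 3 retina libraries. The neural retina was taken out of the opened eye first, and the RPE/choroid sample was what RNAzol washed off the remaining eye cup. The RPE/choroid libraries are therefore whole-tissue lysates, and they were made from polyA RNA by a method that enriches whole transcripts, because RNA was scarce.

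The rod-rich set holds young 1, young 2, aged 1, aged 3 and 8-AG 1, and the rod-poor set holds young 3, aged 2, 8-AG 2 and 8-AG 3. Young 1 and young 2 carry 1 label number with the letters L and R, and so do aged 1 and aged 2. The labels do not say whether a shared number means a shared rat, so that the replicates may not all be separate animals and p-values measure the spread between these libraries. Total counts ran from 28573828 to 36799399 in rod-rich libraries and from 34950623 to 48203050 in rod-poor libraries, and 18949 to 19720 genes had a count. The mean total was 31875367 ± 4138508 (SD, n = 5) against 41249510 ± 6995154 (SD, n = 4), a difference that did not pass a two-sided exact permutation test (p = 0.0952, where the lowest possible is 0.0159). The 8-AG 1 library stood apart from the others, with 5.62% of its counts in skeletal muscle genes and the lowest sums for pigment, vessel and macrophage genes, and results that rest on it are given with and without it.

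Rods are the photoreceptors of dim light. Their outer segments hold the phototransduction cascade, in which the G protein transducin activates a phosphodiesterase and arrestin ends the signal. The tips of the outer segments are embedded in the apical processes of the RPE, which engulfs shed discs and returns the visual chromophore to the rods through the visual cycle. Melanin in the back of the eye is made by the RPE and by the melanocytes of the choroid, the choroid also holds fenestrated vessels, fibroblasts and macrophages, and the basal side of the RPE faces the choriocapillaris. Homeobox factor CRX and leucine zipper factor NRL are known regulators of rod genes, and MITF is known for its control of pigment genes.

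The 250 bases upstream of the start of 4 genes are shown because they stand for the 3 behaviours described below. Sag and Pde6b go with the rods, Rpe65 is a visual cycle gene of the RPE that was higher beside them, and Tyr is a pigment gene that was lower. The sequences are RefSeq sequence on the build GRCr8, 5′ to 3′ on the gene's own strand, at chr9:95916947-95917196 (plus strand), chr14:1511436-1511685 (minus strand), chr2:251425118-251425367 (plus strand) and chr1:150622858-150623107 (minus strand). Capitals mark TAATCC (a core letter set of CRX sites), TGCTGA (a part of NRL sites) and CATGTG (an E-box of MITF sites) on either strand, and no marked matches overlap.
Sag: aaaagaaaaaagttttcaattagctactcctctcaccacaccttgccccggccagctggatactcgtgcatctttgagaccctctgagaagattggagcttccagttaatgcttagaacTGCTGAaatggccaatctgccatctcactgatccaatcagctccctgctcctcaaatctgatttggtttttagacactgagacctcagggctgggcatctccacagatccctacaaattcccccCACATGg
Pde6b: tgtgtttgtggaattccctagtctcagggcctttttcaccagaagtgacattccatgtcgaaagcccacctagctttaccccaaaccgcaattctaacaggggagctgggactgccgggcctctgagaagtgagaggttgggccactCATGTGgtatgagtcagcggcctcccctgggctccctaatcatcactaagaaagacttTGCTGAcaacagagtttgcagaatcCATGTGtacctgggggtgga
Rpe65: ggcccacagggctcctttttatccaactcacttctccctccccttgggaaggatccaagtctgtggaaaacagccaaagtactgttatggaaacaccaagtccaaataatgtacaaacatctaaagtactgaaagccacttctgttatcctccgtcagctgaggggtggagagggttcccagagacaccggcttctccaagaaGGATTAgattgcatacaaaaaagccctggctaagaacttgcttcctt
Tyr: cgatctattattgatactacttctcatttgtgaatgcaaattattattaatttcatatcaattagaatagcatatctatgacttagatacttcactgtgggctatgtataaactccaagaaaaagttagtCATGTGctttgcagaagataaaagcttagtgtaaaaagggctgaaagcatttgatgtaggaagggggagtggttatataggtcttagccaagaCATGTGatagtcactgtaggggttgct

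TAATCC on either strand was found in 5 of the 14 rod genes with an entry, in 2 of 8 visual cycle genes and in 2 of 9 melanin genes, against 6.33% of 27457 promoters of the same length. CATGTG was found in 6 of 9 melanin genes, 3 of 8 visual cycle genes and 2 of 14 rod genes, against 11.7% of all promoters. TGCTGA was found in 3 of 14 rod genes, 1 of 8 visual cycle genes and 3 of 9 melanin genes, against 15.2%. Lists of other cells also held these letters, with CATGTG in 4 of 9 macrophage and 3 of 7 Müller genes and TGCTGA in 7 of 15 lens genes. Among the 1425 promoters of all genes that were higher without overlap and in each group in the rod-rich libraries, TAATCC was in 6.95%. The counts include Prph2 (TAATCC) of the rod list and Dct (TAATCC and CATGTG) of the melanin list, which were not found among the measured genes. All these matches describe letters in a window and were not tested.

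The 3 genes that mark the sets were far apart between them. Gnat1, the alpha subunit of rod transducin, had 2206 CPM in young 1, 2649 in young 2, 887 in aged 1, 2288 in aged 3 and 6475 in 8-AG 1, against 237 in young 3, 75.7 in aged 2, 80.9 in 8-AG 2 and 105.0 in 8-AG 3. Sag, the rod arrestin, had 2187, 2024, 1274, 1783 and 4457 CPM in the same order of rod-rich libraries, and 161, 58.3, 106.0 and 84.7 CPM in the rod-poor ones. Pde6b, the beta subunit of the rod phosphodiesterase, had 792, 738, 411, 534 and 1632 CPM against 61.2, 17.6, 38.3 and 22.0 CPM. No library of one set reached the other set for any of the 3 genes, as the choice of the sets requires. The 8-AG 1 library was the highest for each of them, and aged 1 was the lowest of the rod-rich libraries.

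Rod genes summed to 20793 CPM in young 1, 21899 in young 2, 13531 in aged 1, 19054 in aged 3 and 54765 in 8-AG 1, and to 2183 CPM in young 3, 661 in aged 2, 1042 in 8-AG 2 and 1022 in 8-AG 3. Here 20 of the 21 listed rod genes were found. The lowest rod-rich library, aged 1, stood 6.20-fold above the highest rod-poor library, young 3. Within the rod-rich set 8-AG 1 was the highest, and within the rod-poor set young 3 was. In a bulk sample more rods and more RNA per rod cannot be told apart, and the same holds for every other cell type here.

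Differences between the sets are given on a log2(CPM + 1) scale, as the mean of the rod-rich minus the mean of the rod-poor libraries of each labelled group, averaged over the young, aged and 8-AG-treated groups. They carry no test, since the same libraries chose the sets. Of 14580 genes with a mean of at least 1 CPM, 2310 were higher in all 5 rod-rich than in all 4 rod-poor libraries (15.8%) and 928 were lower (6.36%). These shares stand beside the counts below as the background, and nothing is read from them. Without 8-AG 1 the counts were 2506 and 972. All 20 rod genes were higher without overlap, with a median difference of 4.44, and by group the median was 3.24 for young, 4.39 for aged and 5.48 for treated rats.

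Among genes with a symbol, a mean of 2 or more on the log2 CPM scale, no overlap and the same direction in each group, the 10 highest differences included those of Pde6b, Sag, Slc12a5, Crx, Grk1, Rp1, Cplx4, Gnat1 and Nrl, from 4.68 for Pde6b to 4.54 for Nrl. The transcription factors Crx and Nrl had 92.9 to 190 CPM and 41.2 to 165 CPM in the rod-rich libraries, against 2.55 to 6.89 CPM and 1.37 to 5.27 CPM. Slc12a5 and Cplx4 were among these 10 without being phototransduction genes. Slc12a5, the neuronal potassium-chloride cotransporter, had 33.8 to 147 CPM in rod-rich libraries against 1.68 to 4.75 CPM, and Cplx4, a complexin of ribbon synapses, had 81.9 to 229 CPM against 2.37 to 6.99 CPM.

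**Figure D1:**
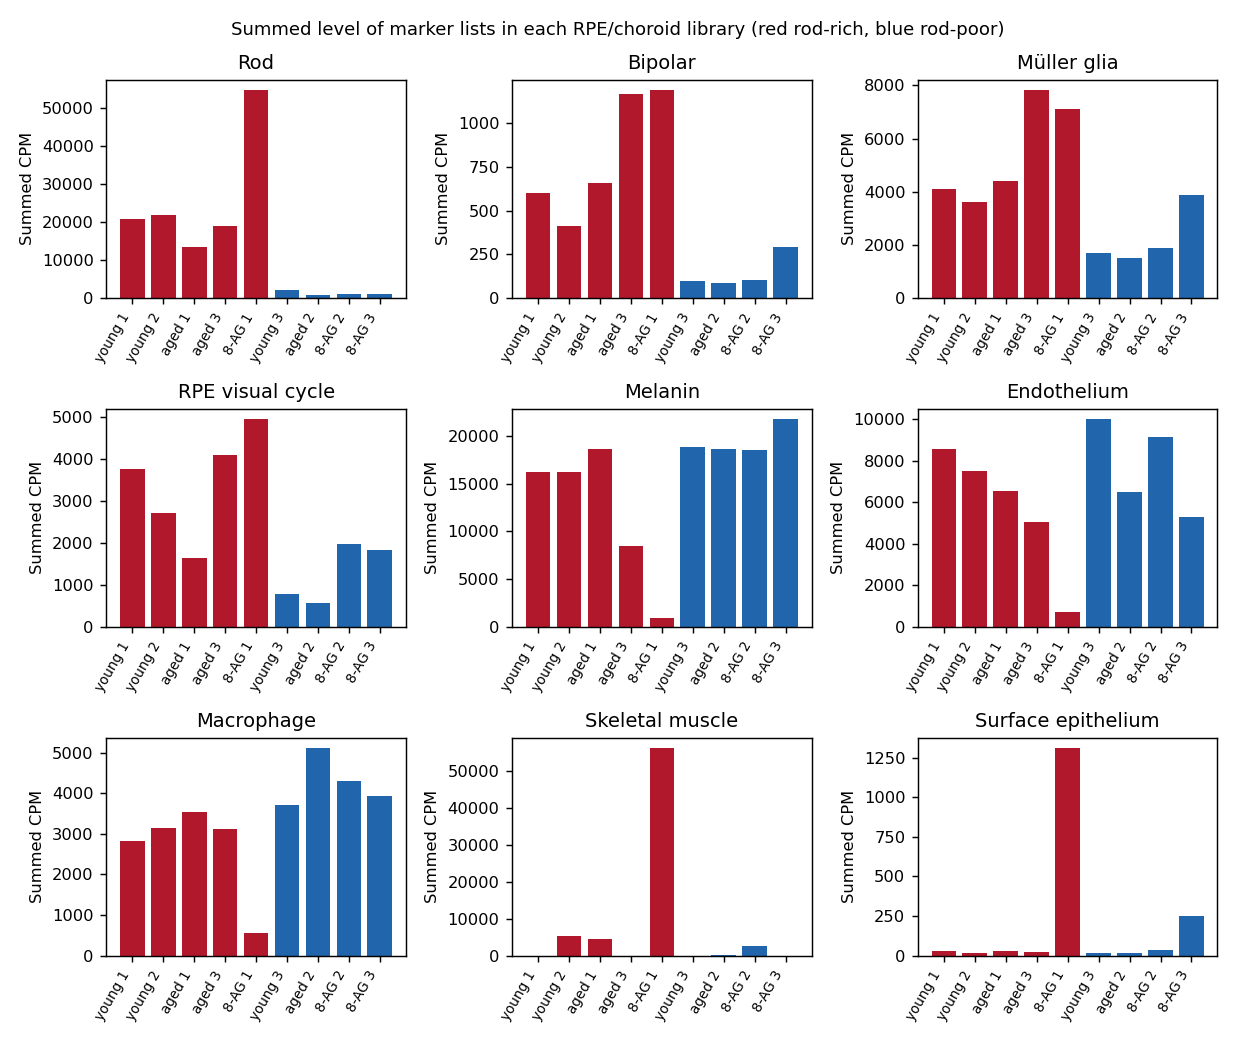
Summed CPM of 9 marker lists (vertical axes, linear from 0) in each RPE/choroid library (horizontal axes), with rod-rich libraries in red and rod-poor ones in blue. Rod and bipolar sums are higher in each rod-rich library than in any rod-poor one, visual cycle sums overlap, melanin, endothelium and macrophage genes are lowest in 8-AG 1, and skeletal muscle reaches 56245 CPM in 8-AG 1.

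The other cells of the neural retina went with the rods. Cone genes, which serve daylight vision, summed to 178 to 543 CPM in rod-rich and 36.6 to 64.9 CPM in rod-poor libraries, with a median difference of 3.11 and 7 of 9 genes higher without overlap. Gnb3, a transducin beta subunit of cones and ON bipolar cells, had the largest difference of the cone list at 4.47, with 56.0 to 317 CPM against 4.85 to 16.5 CPM. Gngt2, a transducin gamma subunit of cones, did not follow, with 20.9 to 42.8 CPM in rod-rich and 27.6 to 36.1 CPM in rod-poor libraries.

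Bipolar cells carry the photoreceptor signal to the inner retina. Their genes summed to 411 to 1189 CPM against 84.5 to 291 CPM, and 11 of 12 were higher without overlap, with a median of 3.65. Pcp2, a bipolar cell modulator of G protein signalling, had 109 CPM in young 1, 78.3 in young 2, 141 in aged 1, 260 in aged 3 and 268 in 8-AG 1, against 5.12, 7.24, 5.46 and 13.6 CPM in young 3, aged 2, 8-AG 2 and 8-AG 3. The exception was Trpm1, the channel of ON bipolar cells that melanocytes also express, with 139 to 322 CPM against 52.9 to 219 CPM.

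Amacrine and horizontal cell genes had a median difference of 3.40, with 7 of 10 higher without overlap. Gad1, which makes the transmitter GABA, had 114 to 316 CPM against 6.08 to 12.5 CPM. Ganglion cell genes, from the neurons whose axons form the optic nerve, had a median of 1.72 and 7 of 9 higher without overlap. Müller glia genes had a median of 2.07 and 6 of 10 higher without overlap. Glul, the glutamine synthetase of Müller glia, had 1599 to 2328 CPM in rod-rich libraries and 879.7 to 1969.9 CPM in rod-poor ones, where 8-AG 3 reached into the rod-rich range.

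Set against the mean retina library of the same group, rod genes stood at 30.7% in young 1, 32.4% in young 2, 29.5% in aged 1, 41.5% in aged 3 and 109% in 8-AG 1, and at 3.23% in young 3, 1.44% in aged 2, 2.07% in 8-AG 2 and 2.03% in 8-AG 3. The retina table holds RSEM expected counts from another library type and was scaled on its own, so that these percentages are descriptions across tables and nothing was tested between tissues. Pde6g shows how far single genes can differ between the tables, with 2829 CPM in 8-AG 1 and 313 CPM in the retina mean. The lists did not keep 1 ratio. In aged 3 cone genes stood at 97.0% and bipolar genes at 68.8% of retina while rod genes stood at 41.5%, and in young 1 cone genes stood at 58.3% against 30.7% for rods. Müller genes were higher still, at 138% in aged 3 and 130% in 8-AG 1. In the rod-poor 8-AG 3, bipolar genes stood at 20.8% and Müller genes at 70.8%, while rod genes stood at 2.03%.

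**Figure D2:**
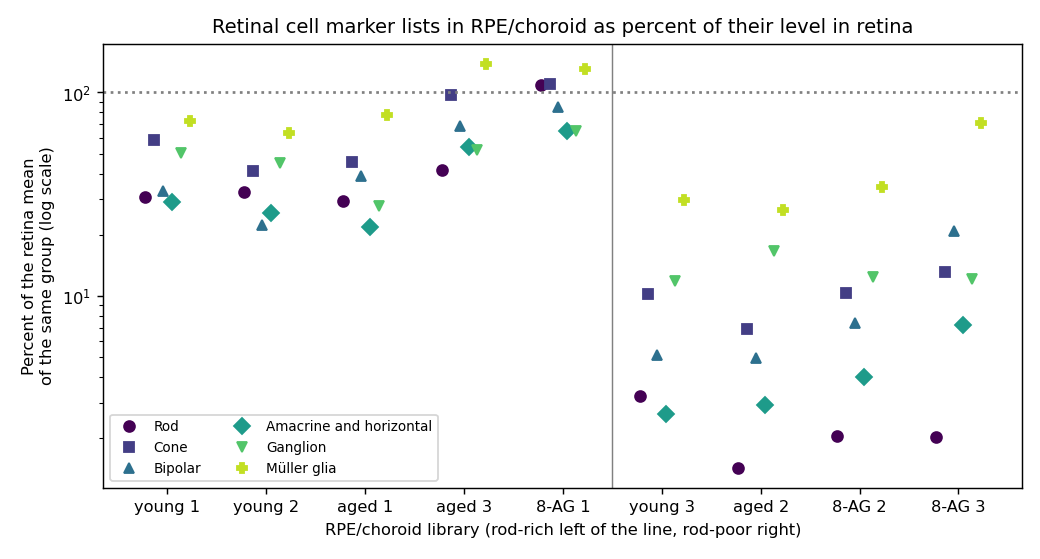
Summed CPM of 6 retinal marker lists in each RPE/choroid library, as percent of the retina mean of the same group (vertical axis, log scale), with rod-rich libraries left of the line and the dotted line at retina level. Rod genes lie between 29.5% and 109% on the left and between 1.44% and 3.23% on the right, and the other lists lie above rods in every rod-poor library except amacrine and horizontal genes in young 3.

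Genes of the retina differed in how far they went with the rods. A gene was classed as higher in retina where the retina mean was at least 10 CPM and at least 5 times the RPE/choroid mean. Of 1478 such genes at 1 CPM or more in RPE/choroid, 528 (35.7%) were higher without overlap in the rod-rich libraries and 7 (0.474%) were lower, and the median difference was 0.44. The limit of 1 CPM is on the mean of all 9 libraries, and some genes pass it only through the rod-rich ones. Chat, for one, had means of 10.1 CPM in rod-rich and 0.583 CPM in rod-poor libraries, so that these counts are a description. Gnat1, Rp1 and Grk1 are in this class, but Sag, Pde6b, Nrl and Crx are not, since the rod-rich libraries raised their RPE/choroid mean above the limit. Genes at a similar level in both tissues, within 2-fold, had a median of 0.06, with 747 of 4072 higher and 94 lower without overlap.

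**Figure D3:**
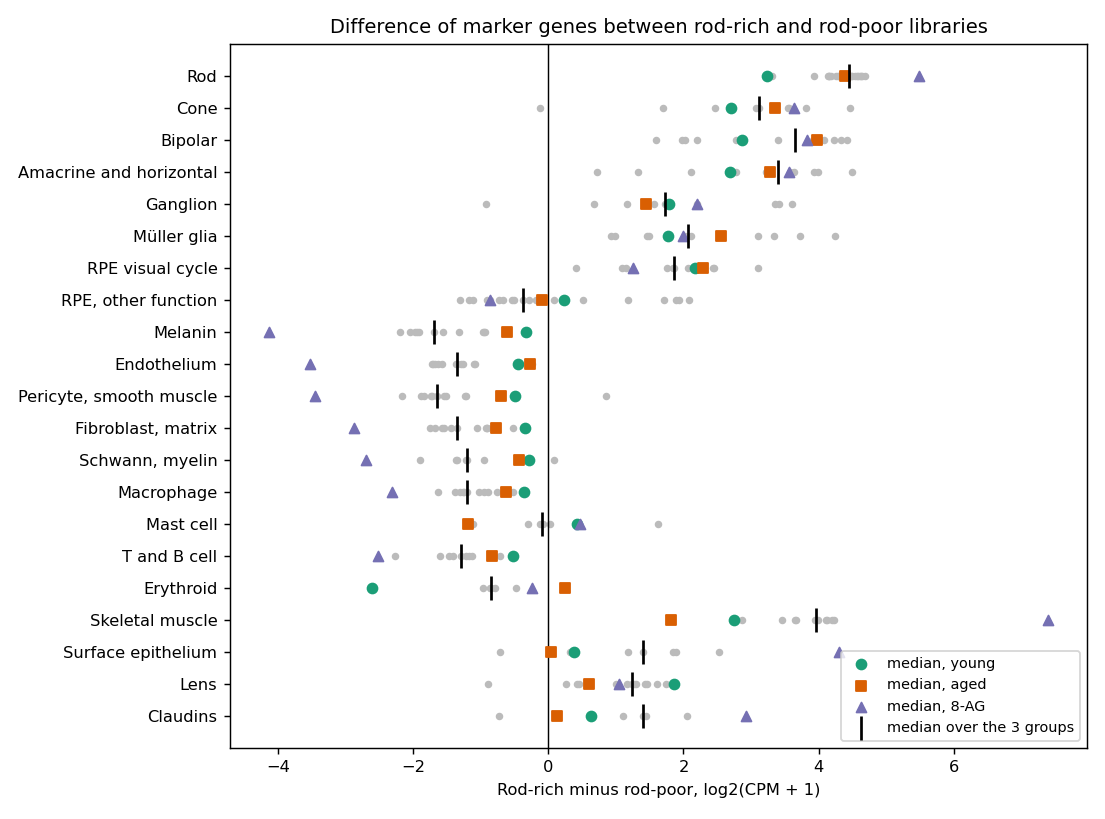
Rod-rich minus rod-poor difference in log2(CPM + 1) (horizontal axis) for the genes of 21 marker lists (vertical axis), with grey points for genes, coloured symbols for the list median in each labelled group and a black bar for the median of the genes. Retinal lists and the visual cycle lie right of 0 in each group, and the medians of melanin and vessel lists lie between -0.27 and -0.70 in young and aged rats and between -3.45 and -4.13 in the 8-AG group.

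Genes of the RPE were divided. Mean differences were positive for visual cycle genes, of which 3 of 10 were separate between the sets, and negative for pigment genes, of which 4 of 11 were. Most of the size of the pigment difference lay in 8-AG 1, and the remaining RPE genes lay on both sides. All 10 visual cycle genes had a positive mean difference over the 3 groups, up to 3.10 for Rlbp1, with a median of 1.85 that was 2.17 for young, 2.29 for aged and 1.25 for treated rats. Rlbp1 and Rrh were among the 3 that did not overlap, and the sums of the list overlapped, with 1636 CPM in aged 1 and 1965 CPM in 8-AG 2. Of the 10, 6 are classed as higher in RPE/choroid than in retina.

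Rpe65, the isomerase of the visual cycle, had 337 CPM in young 1, 246 in young 2, 128 in aged 1, 346 in aged 3 and 547 in 8-AG 1, against 56.6 in young 3, 26.0 in aged 2, 169 in 8-AG 2 and 106.0 in 8-AG 3. The aged 1 library lay below 8-AG 2, and within each labelled group every rod-rich library lay above every rod-poor one. Rgr, a retinal-binding opsin of the RPE, had 707, 486, 238, 634 and 837 CPM against 127, 68.6, 377 and 224 CPM, with the same overlap. Ttr, the retinol carrier transthyretin, had 1685, 1178, 669, 1786 and 2306 CPM against 329, 254, 945 and 860 CPM. Lrat, which esterifies retinol, had a difference of 1.75, Stra6, a retinol uptake receptor, 1.86, and Rdh5, a retinol dehydrogenase, 1.15. Rlbp1, the retinaldehyde-binding protein CRALBP, is made by Müller glia as well, and its retina mean of 262 CPM was similar to its RPE/choroid mean.

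Of 20 other RPE genes, 19 had a mean of at least 1 CPM, none was higher and 2 were lower without overlap. The median difference was -0.37, and it was 0.09 without 8-AG 1, on the other side of 0. The highest differences were those of Krt18 (2.09), Car12 (1.94) and Slc16a8 (1.88), followed by Krt8 (1.71). Slc16a8, the lactate transporter of the RPE, had 289, 208, 96.3, 287 and 336 CPM in young 1, young 2, aged 1, aged 3 and 8-AG 1, against 65.2, 28.0, 171 and 119 CPM in the rod-poor libraries. Krt18 and Krt8, keratins of simple epithelia such as the RPE, were highest in aged 3, at 247 and 218 CPM. In the rod-poor libraries Krt18 ranged from 9.44 CPM in aged 2 to 111 CPM in 8-AG 3.

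Best1 and Kcnj13 went the other way. Best1, a chloride channel of the basolateral RPE membrane, had 590, 738, 598, 664 and 388 CPM in the rod-rich libraries against 847, 964, 797 and 829.1 CPM. Kcnj13, an inwardly rectifying potassium channel, had 442, 442, 443, 320 and 160 CPM against 498, 562, 539 and 620 CPM. Serpinf1, the secreted factor PEDF, had the lowest difference of the list at -1.31, but it lay between 576 and 729 CPM in 4 rod-rich libraries and at 79.2 CPM in 8-AG 1, against 510 to 930 CPM in the rod-poor libraries.

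**Figure D4:**
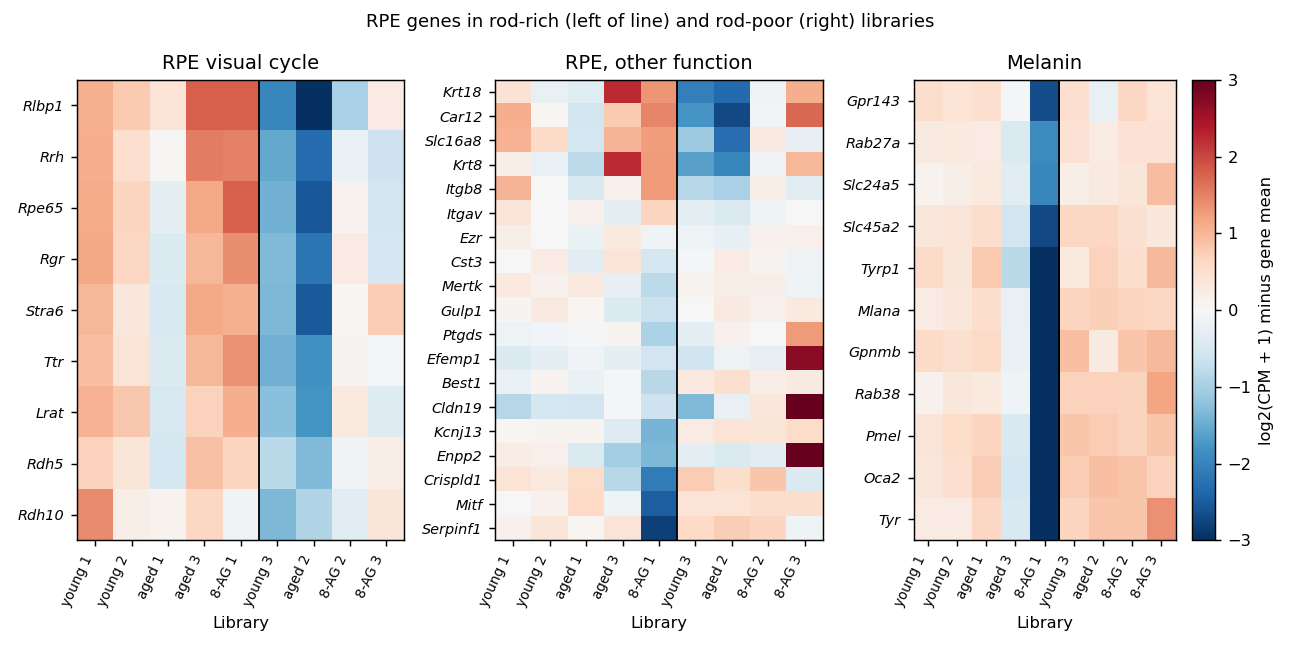
Level of each RPE gene in each library, as log2(CPM + 1) minus the gene's mean over the 9 libraries (colour, limited to -3 and 3), with rod-rich libraries left of the line and genes ordered by their difference. Visual cycle genes are high on the left, with differences from 3.10 for Rlbp1 to 1.09 for Rdh10 among the 9 shown, and melanin genes are deep blue in 8-AG 1.

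The 11 melanin genes had differences from -0.93 for Gpr143 to -2.20 for Tyr, and Tyr, Pmel, Rab38 and Mlana did not overlap. Tyr, the first enzyme of melanin synthesis, had 339 CPM in young 1, 338 in young 2, 440 in aged 1, 208 in aged 3 and 13.3 in 8-AG 1, against 446, 513, 511 and 744 CPM in young 3, aged 2, 8-AG 2 and 8-AG 3. Pmel, the fibril protein of melanosomes, had 6900, 7655, 8186, 3848 and 289 CPM against 9301, 8875, 8366 and 9335 CPM. Most of the size of these differences lay in 1 library. The list median was -1.69 over the 3 groups, but -0.34 in young, -0.62 in aged and -4.13 in the 8-AG group, and it was -0.44 without 8-AG 1. Gpr143, a receptor of the melanosome, had a difference of 0.19 without that library, and Tyrp1, an enzyme of melanin synthesis, had 0.17 in young rats.

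Lists of choroidal cells had negative median differences. Endothelial genes had a median of -1.35 and -0.26 without 8-AG 1, and none of 13 was separate between the sets. Plvap, the diaphragm protein of fenestrated vessels, had 3754, 3031, 2266, 1605 and 107 CPM in rod-rich libraries and 3646, 2414, 3306 and 2068 CPM in rod-poor ones. Fibroblast genes had a median of -1.35, with Dcn and Prelp lower without overlap among 11. Dcn, the matrix proteoglycan decorin, had 4401, 5365, 5522, 2533 and 704 CPM against 6666, 6506, 6161 and 5835 CPM. Macrophage genes had a median of -1.20, with 4 of 11 lower without overlap, which were Aif1, Cd68, Lyz2 and Tyrobp. Lyz2, lysozyme, had 155 to 1916 CPM in rod-rich libraries and 1930.1 to 2902 CPM in rod-poor ones. Without 8-AG 1 the medians were -0.48 for fibroblasts and -0.49 for macrophages.

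Pericyte and smooth muscle genes had a median of -1.65 and Myh11 alone of 11 lower without overlap, Schwann cell and myelin genes -1.20 with 1 of 9, and T and B cell genes -1.29 with 1 of 9. Without 8-AG 1 these medians were -0.62, -0.45 and -0.57. Mast cell genes were mixed, with a median of -0.10, 1 of 6 higher without overlap and none lower. The mast cell median ran from -0.42 to 0.52 with 1 library left out. Erythroid genes had a median of -0.85, which was 0.018 without young 3, and none of 5 separate, with 302 to 4094 CPM in the young libraries and 170.4 to 605 CPM in the others apart from 8-AG 3 at 2939.7 CPM.

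Genes were classed as higher in RPE/choroid by a mean over all 9 libraries, so that some enter through the set where they are high. Over all 1850 genes classed as higher in RPE/choroid, 434 (23.5%) were lower and 11 (0.595%) were higher without overlap in rod-rich libraries. Their median difference was -0.87, and it was -0.31 for young, -0.35 for aged and -1.84 for treated rats. Without 8-AG 1 the median was -0.35, with 454 lower and 12 higher. By the rule used above for the 10 highest, the lowest differences over all genes were those of 3 loci with no gene name, AABR07051562.1 (-3.87), AABR07061134.1 (-3.40) and AABR07065625.1 (-3.36). Next came Col10a1, a short-chain collagen (-2.28), Tyr (-2.20), Rgs1, a regulator of G protein signalling in leukocytes (-2.09), and Inmt, an indole methyltransferase (-2.09). F2r, the thrombin receptor (-2.04), and Pmel (-1.98) were also among the 10, and all of those named here were classed as higher in RPE/choroid.

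AABR07065625.1 had 379, 232, 848, 447 and 20.4 CPM in rod-rich libraries and 1300, 2550, 1774 and 935 CPM in rod-poor ones. Inmt had 775, 816, 722, 839 and 51.7 CPM against 1682, 1327, 1266 and 1005 CPM. Neither reached the other set, and for both the 4 rod-rich libraries other than 8-AG 1 also lay below every rod-poor one.

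The 11 RPE/choroid genes that were higher with the rods were mostly loci without a name. The 5 highest were AA926063 (3.55), AC123144.1 (2.5), AABR07034445.1 (1.78), RGD1562690 (1.63) and AABR07025010.1 (1.59). AA926063 had 38.5, 41.7, 35.1, 44.7 and 136 CPM in the rod-rich libraries against 6.39, 2.75, 3.77 and 4.55 CPM in the rod-poor ones, and 0.0677 CPM in the retina mean of the other table.

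Genes of tissues beyond retina, RPE and choroid were high in some libraries of each set. In 8-AG 1 melanin genes summed to 895 CPM, against 8433 to 18622 CPM in the other rod-rich libraries. Endothelial genes there summed to 729 CPM against 5032 to 8583 CPM, and macrophage genes to 548 CPM against 2823 to 3536 CPM. Skeletal muscle genes summed to 56245 CPM in 8-AG 1. They summed to 5456 CPM in young 2, 4398 CPM in aged 1 and 2723 CPM in the rod-poor 8-AG 2, and to at most 96.1 CPM in the other 5 libraries. Genes of surface epithelium, as in cornea and conjunctiva, summed to 1311 CPM in 8-AG 1 and 249.9 CPM in 8-AG 3, and to 16.2 to 34.2 CPM elsewhere. Krt15, a keratin of stratified epithelium, had 668 CPM in 8-AG 1, 44.1 CPM in 8-AG 3 and 1.01 to 7.41 CPM elsewhere, and Krt12, the keratin of the corneal epithelium, had 124 CPM in 8-AG 3 and at most 1.70 CPM elsewhere.

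Lens genes and claudins had positive median differences of 1.23 and 1.40, with no gene of either list separate between the sets. Leaving out 1 library gave 0.67 to 1.82 for lens genes, the lowest without young 2, and 0.26 to 2.12 for claudins, the lowest without 8-AG 1. Lens genes summed to 836 CPM in young 2, 248.1 CPM in 8-AG 1 and 263 CPM in 8-AG 3, and to 21.7 to 61.1 CPM in the other libraries. A list of 6 claudins, which seal epithelial junctions, Cldn19, Cldn23, Cldn7, Cldn4, Cldn3 and Cldn2, summed to 166 CPM in 8-AG 1 and 107 CPM in 8-AG 3, and to 3.65 to 23.1 CPM in the other 7 libraries. The rod-poor 8-AG 3 was also the highest library for Enpp2, a secreted lysophospholipase (1266 CPM against 43.8 to 132 CPM), Efemp1, a matrix fibulin (938 against 94.3 to 134 CPM), and Cldn19, a claudin of the RPE (37.8 against 0.0830 to 2.39 CPM).

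The pairs with a shared label number gave the contrast within and across the sets. Young 1 and young 2, both rod-rich, had rod sums at a ratio of 0.950, and melanin at 0.998 and visual cycle genes at 1.39. Aged 1 and aged 2 also share a number and fall into different sets, and the left over right ratio was 20.5 for rod genes, 7.78 for bipolar genes, 2.94 for Müller genes and 2.87 for visual cycle genes. It was 0.997 for melanin genes, 1.0 for endothelial genes, 0.731 for fibroblast genes and 0.692 for macrophage genes. In this pair 1666 genes at 1 CPM or more were over 2-fold higher in aged 1 and 197 over 2-fold higher in aged 2, against 200 and 199 in young 1 and young 2. Skeletal muscle genes were also 45.7-fold higher in aged 1, and in the young pair they stood at 23.9 and 5456 CPM.

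Rod content was then set against the labelled groups. The mean log2 summed rod CPM was 13.3 ± 1.90 (SD, n = 3) in young, 12.4 ± 2.67 (SD, n = 3) in aged and 11.9 ± 3.31 (SD, n = 3) in 8-AG-treated rats. The difference was -0.85 for aged minus young and -0.52 for 8-AG minus aged, both smaller than the SD of any of these groups. Leaving out 1 library gave -1.94 to 0.69 and -2.43 to 0.45, so that both differences turned direction. No test is given, since summed rod CPM chose the sets and 3 against 3 libraries cannot go below 0.1 in an exact permutation test. Young and aged rats had 2 rod-rich libraries each and 8-AG-treated rats had 1, which is 8-AG 1.

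In aged against young RPE/choroid, edgeR's quasi-likelihood test on 16047 genes gave 115 genes higher (0.717%) and 102 lower (0.636%) by the study's rule for a differentially expressed gene (DEG), which asks for more than 1.5-fold and for P below 0.05 before adjustment. None had a Benjamini-Hochberg adjusted p under 0.05 by edgeR, where 341 had an unadjusted P under 0.05, and DESeq2 gave 34 by adjusted p. None of the 20 rod, 12 bipolar or 10 visual cycle genes was a DEG. Gnat1 had a log2 fold change of -0.68 ± 1.25 (SE), Sag -0.52 ± 1.28 and Pde6b -0.75 ± 1.28. Of 13 endothelial genes 4 were lower, Angpt2, Aplnr, Cdh5 and Plvap, with a list median of -0.52 against 0.02 over all genes tested. In the rod-rich libraries alone, where 232 genes were higher (1.44%) and 177 lower (1.1%), Plvap was the 1 endothelial DEG and the list median was -0.32. That fit, also used below, sets aged 1 and aged 3 against young 1 and young 2, which share a label number and may come from the same rat. With the rod score described below, Aplnr, Cdh5, Plvap, Tek and Tie1 were lower and the median was -0.51. Plvap changed by -0.73 ± 0.24 (SE), with an adjusted p of 0.99998 by edgeR. Of 11 lens genes 4 were lower, and their levels lay mostly in young 2. Among 6 erythroid identifiers 4 were lower, those of Alas2, Hbb and 2 named Hba-a2, and hemoglobin copies may share reads, which was not tested. None of the 6 was a DEG in the rod-rich libraries alone, and their sum was 4094 CPM in young 3 against 302 CPM in young 2 and 207 to 295 CPM in the aged libraries.

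Every DEG among genes of a tissue class or list had the same adjusted p, 0.99998 by edgeR, and the 5 with the smallest unadjusted P were C4b, Igh-6, RGD1310587, AABR07005821.1 and LOC299282. C4b, a complement component, had 41.2, 38.9 and 43.0 CPM in young 1, 2 and 3 and 90.3, 91.5 and 74.9 CPM in aged 1, 2 and 3, which is a log2 fold change of 1.05 ± 0.14 (SE). The log2 fold change was 1.01 in the rod-rich libraries alone and 0.999 with the rod score described next. Igh-6, the immunoglobulin mu chain, had 1.01, 1.33 and 4.54 CPM in young and 45.6, 169.7 and 215 CPM in aged libraries. For both genes the rod-poor aged 2 and young 3 lay with their own labelled group. In 8-AG 1, 2 and 3, C4b had 43.0, 76.0 and 147 CPM and Igh-6 had 1.17, 283.8 and 93.2 CPM. The rod-rich 8-AG 1 was thus the lowest treated library for both genes, at the level of the young libraries.

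A rod score, the log2 of the summed rod CPM of each library, was then added to the fit. The score is also the value that chose the sets, so that counts with it are given as a description. With it aged against young gave 881 genes higher (5.49%) and 233 lower (1.45%), and 1 gene (0.00623%) had an adjusted p under 0.05 by edgeR (Nhsl1, chosen after its value was seen). Of 1660 genes classed as higher in retina, 205 were higher and 10 lower, against 5 and 9 without the score. Of 12 bipolar genes 9 were DEGs, all higher, and of 13 amacrine and horizontal genes 11 were, but none of either list was without the score, and in the rod-rich libraries alone 2 of 12 and 4 of 13 were. Gad1 had a log2 fold change of 0.86 without and 1.51 with the score. Aged 3 stood at 68.8% of retina for bipolar and 41.5% for rod genes, and young 2 at 22.4% and 32.4%, and the part of such unequal content in these counts was not tested.

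In 8-AG against aged RPE/choroid, the test on 16257 genes gave 201 DEGs higher (1.24%) and 68 lower (0.418%), none with an adjusted p under 0.05 by edgeR, where 274 had an unadjusted P under 0.05 and DESeq2 gave 41 by adjusted p. Leaving out 8-AG 1, the 1 rod-rich library of the treated group, gave 268 higher (1.62%) and 286 lower (1.73%). Leaving out 8-AG 2 gave 578 and 155, leaving out 8-AG 3 gave 200 and 30, and leaving out aged 1, aged 2 or aged 3 gave 72 and 25, 68 and 18, and 89 and 167. Summing aged 1 and aged 2, which share a label number, gave 63 higher and 22 lower. Medians of retinal lists were lower without 8-AG 1, and those of rod, cone, ganglion cell and Müller genes changed sign. The median log2 fold change of the 20 rod genes was 1.02 with all 6 libraries and -3.32 without 8-AG 1, where the treated group has no rod-rich library and the aged group has 2. For bipolar genes it was -0.19 and -3.62, and for Müller genes 0.12 and -0.95. No rod gene was a DEG with all 6 libraries. Without 8-AG 1, Grk1, Pdc and Rcvrn were DEGs, lower, and 110 of 1675 genes classed as higher in retina were lower, against 10 of 1661 with it. Rod genes chose the sets, and this fit leaves rod-rich libraries in the aged group alone, so that nothing is read from these calls.

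Medians of pigment and vessel lists moved the other way. The median of the 11 melanin genes was -0.03 with all libraries, -1.30 with the rod score and 0.41 without 8-AG 1, and that of the 13 endothelial genes was -0.18, -1.05 and 0.35. None of the 11 melanin genes was a DEG in any of these fits. Visual cycle genes had a median of 0.62, 1.07 and 0.01, and none was a DEG with all libraries or without 8-AG 1. In the rod-poor libraries alone, where 229 of all genes were higher (1.37%) and 262 lower (1.57%), 8 of 10 were higher with a median of 1.90, but that fit sets 8-AG 2 and 8-AG 3 against aged 2 alone, the library with the lowest visual cycle sum of the 9. Rpe65 and Lrat were DEGs, higher, with the rod score, where 412 of all genes were higher (2.53%) and 561 lower (3.45%). Rpe65 had a log2 fold change of 0.92 ± 1.06 (SE) with all libraries, 1.33 with the score and -0.23 without 8-AG 1.

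**Figure D5:**
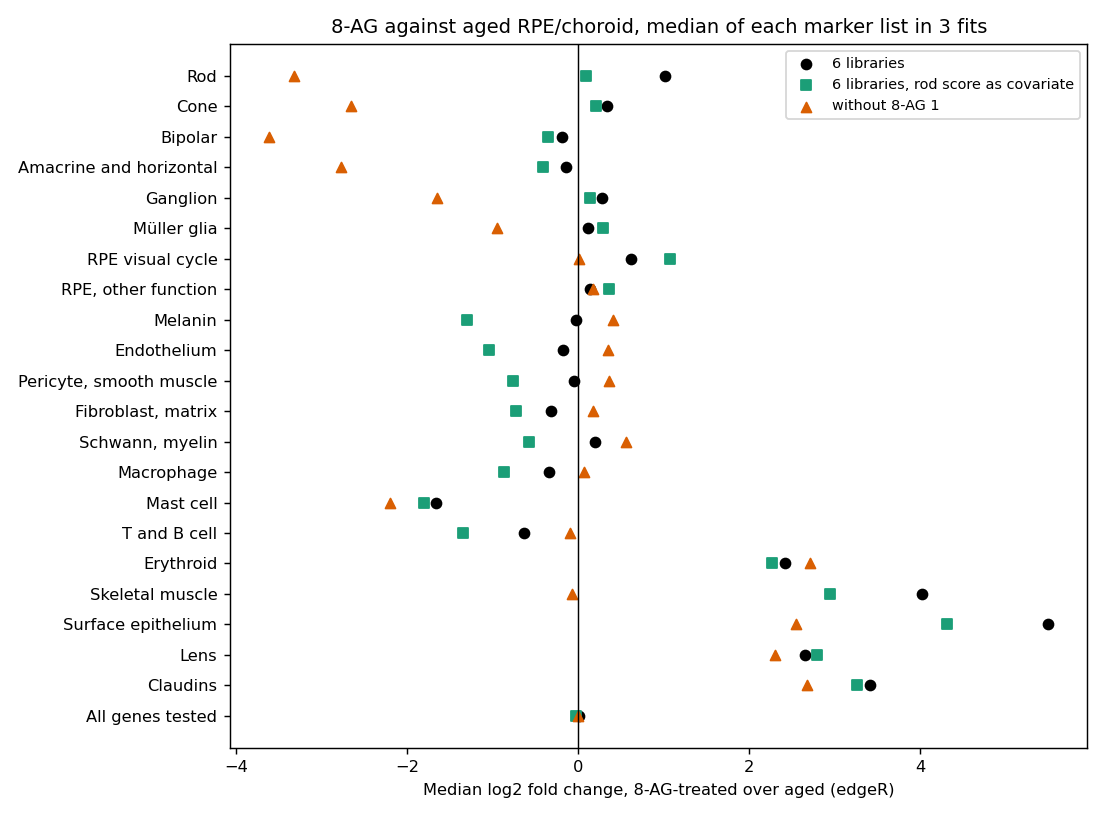
Median log2 fold change of 8-AG-treated over aged RPE/choroid (horizontal axis) for the genes of 21 marker lists and for all genes tested (vertical axis), from edgeR fits with all 6 libraries (black circles), with the rod score as a covariate (green squares) and without 8-AG 1 (orange triangles). The rod median lies at 1.02, 0.09 and -3.32, and the medians of surface epithelium, lens, claudin and erythroid genes lie above 2 in each fit.

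Surface epithelium, skeletal muscle, claudin, lens and erythroid genes had the highest medians, and each list was high in only some treated libraries. Skeletal muscle genes had a median of 4.02, which was -0.07 without 8-AG 1, and none of 10 was a DEG in either fit. Erythroid genes had a median of 2.42, with Alas2 a DEG, higher, among 6 identifiers, and 4 of 6 without 8-AG 1. Of 8 surface epithelium genes 6 were DEGs, higher, with a median of 5.5, which was 4.32 with the rod score and 2.55 without 8-AG 1 with 3 of 8. Of 11 lens genes 7 were higher, with a median of 2.66, and 4 were without 8-AG 1, with a median of 2.30. Of 4 claudins tested Cldn2 and Cldn4 were higher. Cldn4, a claudin of many epithelia, had 84.1, 0.535 and 11.1 CPM in 8-AG 1, 2 and 3 and 0.272, 0.744 and 1.40 CPM in aged 1, 2 and 3, a log2 fold change of 5.52 ± 1.90 (SE) with an adjusted p of 0.99997 by edgeR. Without 8-AG 1 Cldn4 and Cldn2 were no longer DEGs and Cldn19 was one, at 4.06. The summed levels of claudins and of surface epithelium genes were highest in 8-AG 1 and 8-AG 3, while Cldn19 and Krt12 were high in 8-AG 3 alone. Cldn4 and Cldn7 are on both lists, and Cldn4 made up 84.1 of the 166 CPM of claudins in 8-AG 1. The likeness of the sums is therefore partly built in, and the part of surface epithelium in the claudin values was not tested.

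Genes classed as higher in RPE/choroid made up 68 of the 201 higher and 2 of the 68 lower DEGs. The class uses the mean of all 9 libraries, so that genes such as Krt12 and Cldn4 enter it through 8-AG 1 or 8-AG 3, and nothing is read from these counts. Every DEG among classed or listed genes had an adjusted p of 0.99997 by edgeR, and the 5 with the smallest unadjusted P were Lmo7, Serpine3, Pik3ap1, Mcpt1 and Tnnc1. Lmo7, a protein of cell junctions, had 48.7, 66.4 and 60.6 CPM in 8-AG 1, 2 and 3 against 33.6, 32.8 and 34.6 CPM in aged 1, 2 and 3, a log2 fold change of 0.89 ± 0.16 (SE). It was 0.94 without 8-AG 1 and 0.88 with the rod score. In young rats Lmo7 had 27.5 and 36.9 CPM in the rod-rich libraries and 72.6 CPM in the rod-poor one. Serpine3, a serpin family member, had 25.5, 34.6 and 10.7 CPM in treated against 0.815, 0.744 and 3.50 CPM in aged libraries, with 14.2 CPM in young 1. Pik3ap1, an adaptor of PI3-kinase signalling in immune cells, had 35.8, 27.7 and 37.0 CPM against 18.9, 16.2 and 19.1 CPM. Mcpt1, a mast cell protease, had 0, 0.113 and 0.0432 CPM against 0.747, 1.52 and 1.08 CPM, and it was a DEG, lower, both without 8-AG 1 and with the rod score. Tnnc1, troponin C of slow and cardiac muscle, had 279.5, 37.5 and 5.81 CPM against 1.43, 2.0 and 1.71 CPM, and its log2 fold change was 6.18 with 8-AG 1 and 3.66 without it, beside the skeletal muscle genes of that library.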

How the data were processed

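Raw counts per gene of the 9 RPE/choroid libraries were deposited by the authors in 2 tables, which were joined by Ensembl gene ID (32552 genes) and scaled to CPM. The 9 retina libraries were deposited by the authors in the form of RSEM expected counts, 11.5% of them not whole, and were scaled on their own and used for tissue levels alone. The submitters' processing notes name Bowtie2 2.1.0, RSEM 1.2.15, edgeR and Rnor_6.0, and how the RPE/choroid counts were made is not given in the sources used here. Files of the authors' comparisons hold fold changes, p-values and a signal, counts the authors scaled before they were deposited, and only their gene names were used. The label of the treated retina columns, a compound, was read as 8-AG.

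The sets were fixed from summed rod gene CPM, and the members and the 21 marker lists were chosen with earlier results of these data known. Rod-rich minus rod-poor differences are means of log2(CPM + 1) within labelled groups, given for genes at a mean of 1 CPM or more, with no test. Genes were named if they were Gnat1, Sag or Pde6b, if they had the top 3 levels or an extreme difference in a list, the 10 highest or lowest differences over all genes, the 5 highest or lowest in the RPE/choroid class, or the 5 smallest adjusted p among DEGs of a class or list, where all were tied and the unadjusted P was used. Other named genes were chosen after their values were seen. Labelled groups (3 libraries each) were compared with edgeR 4.0.16 (filterByExpr, TMM, robust quasi-likelihood fit) in R 4.3.3, with Benjamini-Hochberg adjustment, and single values with exact permutation tests in SciPy 1.17.1. The SE shown with an edgeR log2 fold change is its absolute value over the square root of its F statistic. The edgeR fit was tested on simulated data. DESeq2 1.42.0 on the same genes (a filter set after seeing the data), other filters and scalings, a rod score covariate, a replicate block, label numbers summed and each library left out were alternatives, and rod-poor libraries alone was added after seeing the data. At 28573828 to 48203050 counts a library, 1 CPM stands on at least 28 counts. Promoter sequences are RefSeq on GRCr8, while the files use Rnor_6.0, so that they were matched by symbol. A few genes that met the rule are not reported here.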

Additional observations from a re-analysis of the deposited data

Results flagged for a closer look

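A library was singled out where its summed CPM for a marker list lay far from the rest of its set by Dixon's test. Of 42 lists by set tested, 14 were singled out. Chance gives about 1 in 20 for 1 list in 1 set, but the lists share libraries and some genes, so that the 14 are not independent, and all except those of young 2 and 8-AG 2 were 8-AG 1 or 8-AG 3. The choice of sets used rod genes, so the rod value is a description.

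In the rod-rich set 8-AG 1 was the highest for rod genes (54765 CPM against 13531 to 21899), skeletal muscle (56245 CPM), surface epithelium (1311 CPM) and claudins (166 CPM). It was the lowest for macrophage genes (548 CPM) and for T and B cell genes (19.4 CPM against 126 to 139). Young 2 was the highest for lens genes (836 CPM).

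In the rod-poor set 8-AG 3 was the highest for bipolar genes (291 CPM against 84.5 to 103), Müller glia genes (3857 CPM against 1501 to 1873) and melanin genes (21770 CPM against 18521 to 18883). It was also the highest for surface epithelium (249.9 CPM), lens (263 CPM) and claudin genes (107 CPM), and 8-AG 2 was the highest for skeletal muscle (2723 CPM).

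The rod-rich minus rod-poor difference of 2 lists had opposite signs in labelled groups with no overlap in either, and this was not tested. Erythroid genes differed by -2.69 on the log2 scale in young and 0.27 in aged rats. Other RPE genes differed by 0.094 in young and -1.04 in 8-AG-treated rats.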

How the results depend on the processing

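With 3 libraries a group, the counts of DEGs moved with most choices. Of the values that answer a comparison 122 were counted as the same, 52 moved and 6 changed direction. For rod content and total counts only the direction was asked, so that values of another size are among the 122. None of the list genes changed sign under 2 other scalings of CPM, which moved the median of all genes from -0.03 to -0.02 or 0.01. These scalings shift all genes of a library nearly alike, so that only differences near 0 could change sign. For aged against young the DEGs higher were 217 with no filter, 881 with the rod score and 232 in rod-rich libraries alone, and those lower were 45 with all 9 libraries in 1 fit, 233 with the rod score and 177 in rod-rich libraries alone. Adjusted calls were 34 with DESeq2 and 1 with the rod score. For 8-AG against aged the DEGs higher were 427 with DESeq2, 378 with no filter, 354 with all 9 libraries, 412 with the rod score and 63 with label numbers summed, and those lower were 133, 125, 111, 561 and 22 in the same order and 262 in rod-poor libraries alone, with 41 adjusted calls by DESeq2. Rod-poor libraries alone gave 229 higher, from 2 libraries against 1 that is assumed to vary like the others. With the rod score, calls higher made up 79.1% against 53.0% of calls for aged against young and 42.3% against 74.7% for 8-AG against aged. Replicate numbers did not pair the libraries (correlations of -0.65 to 0.28 for aged with young and -0.22 to 0.74 for 8-AG with aged), and the replicate block gave 74 higher and 64 lower, and 227 and 79.

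Leaving out 1 library gave 107 to 211 higher and 97 to 203 lower for aged against young, where aged 2 gave 211 and 203, aged 3 gave 177 higher and aged 1 gave 174 lower. For 8-AG against aged it gave 68 to 578 and 18 to 286, with each library's counts in the report, and 0 adjusted calls in either comparison. Genes without overlap numbered 2409 to 3137 higher and 972 to 1633 lower, the last without 8-AG 3, where fewer libraries have to be separate. The median difference of genes higher in retina was 0.39 to 0.49, and 0.52 with a pseudocount of 0.1, 0.29 with no minimum and 0.41 with pooled sets. That of genes higher in RPE/choroid was -1.12 to -0.35, the last without 8-AG 1. Rod content, aged minus young, was -0.85 and ran from -1.94 to 0.69, turning direction without aged 2, and it was 0.028 over all genes higher in retina. Rod content, 8-AG minus aged, was -0.52 and ran from -2.43 to 0.45, turning to 0.13 without aged 1, 0.37 without aged 3, 0.43 without 8-AG 2 and 0.45 without 8-AG 3. The difference in total counts was -11473772 to -7056297. Over all genes higher in retina, content was 12.3%, 11.4% and 6.38% of retina in young 1, 2 and 3, 11.8%, 6.87% and 14.3% in aged 1, 2 and 3, and 20.1%, 7.10% and 7.82% in 8-AG 1, 2 and 3. Of the changes above, the cause was not tested except where stated.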
